A study of Mus musculus with 6 samples.

Results

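Transcripts of 9 genes of lymphocytes and other leukocytes were followed in RNA from sorted mouse mammary epithelial cells: the pan-leukocyte genes Ptprc, Coro1a, Cd52 and Laptm5, the B cell genes Cd79a, Cd79b and Ms4a1, and the T cell genes Cd3e and Cd3g. They are 9 of the 54418 gene identifiers in the deposited count table. The 9 genes were chosen from earlier results on these same libraries, so their levels and the differences between genotypes are given as a description, with no test. Mammary epithelial cells were isolated from 3 Glis2+/+ and 3 Glis2-/- mice, with 1 library per mouse, to ask which transcripts change when the zinc finger repressor Glis2 is lost. All 6 mice were C57BL/6 females of 4 weeks that had no other allele or treatment named in the labels. The Glis2-/- mice carried a germline knockout, so every cell of the animal carried the mutant alleles, not the epithelium alone.

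The sort bears directly on these 9 genes. The dissociated glands were stained with a dye for dead cells, with antibodies to CD24 and CD49f, which separate luminal from basal epithelium, and with antibodies to TER-119, CD31 and CD45 that all carried the same dye. These last 3 proteins mark red cells, endothelium and leukocytes, and the mouse mammary fat pad holds a lymph node as well as scattered leukocytes. CD45 is the product of Ptprc. The gates used for these 6 libraries are not given in the sources used here.

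In a B cell, the membrane immunoglobulin has no signalling domain of its own and depends on a CD79A and CD79B pair, while Ms4a1 encodes CD20, another surface protein of mature B cells. In a T cell, the receptor chains depend in the same way on the CD3 chains, of which Cd3e and Cd3g encode members. Ptprc encodes the CD45 phosphatase that sets the threshold of both receptors, Coro1a an actin-binding protein of haematopoietic cells, Cd52 a small glycosylphosphatidylinositol-anchored surface peptide, and Laptm5 a lysosomal membrane protein that lowers antigen receptor levels.

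All 9 are protein-coding. In GRCm38, Ptprc lies on the minus strand at chr1:138062861-138175708, Coro1a on the minus strand at chr7:126699773-126707787, Cd52 on the minus strand at chr4:134082448-134095082 and Laptm5 on the plus strand at chr4:130913125-130936141. Cd79a lies on the plus strand at chr7:24897381-24902197, Cd79b on the minus strand at chr11:106311341-106314762 and Ms4a1 on the minus strand at chr19:11249675-11266241. Cd3g (chr9:44969572-44980431) and Cd3e (chr9:44998740-45009627) are both on the minus strand with Cd3d on the plus strand between them, so that Cd3g and Cd3d start 1355 bases apart and point away from each other.

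Promoter entries, from 250 bases before to 50 bases after a transcription start, were found for 6 of the 9 genes in RefSeq sequence of GRCm38.p6. They were searched on both strands for the letters AGGAAG, a core that transcription factors of the ETS family such as PU.1 bind, and for ATGCAAAT (the octamer of immunoglobulin promoters), CCCNNGGG (a palindromic core read by EBF1) and TGTGGT (a RUNX core). The Ptprc, Cd79a, Cd3e and Cd3g entries are shown because they are the start regions of the phosphatase used as the sort marker, of a B cell receptor subunit and of both CD3 chains, with AGGAAG or its reverse complement CTTCCT in capitals. They are chr1:138175256-138175555 (minus strand), chr7:24897247-24897546 (plus strand), chr9:45009562-45009861 (minus strand) and chr9:44980382-44980681 (minus strand).
Ptprc: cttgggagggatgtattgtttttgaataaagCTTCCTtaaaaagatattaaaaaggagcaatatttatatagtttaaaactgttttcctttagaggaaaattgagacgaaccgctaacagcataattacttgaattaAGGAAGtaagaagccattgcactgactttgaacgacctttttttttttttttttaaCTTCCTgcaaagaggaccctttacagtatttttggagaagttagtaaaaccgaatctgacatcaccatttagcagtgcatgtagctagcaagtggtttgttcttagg
Cd79a: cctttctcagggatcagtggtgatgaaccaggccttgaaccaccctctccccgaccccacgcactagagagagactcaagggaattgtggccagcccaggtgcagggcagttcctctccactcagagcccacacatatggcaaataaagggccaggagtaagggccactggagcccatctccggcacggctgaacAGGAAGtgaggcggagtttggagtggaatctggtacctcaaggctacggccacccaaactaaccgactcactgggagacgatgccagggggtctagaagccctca
Cd3e: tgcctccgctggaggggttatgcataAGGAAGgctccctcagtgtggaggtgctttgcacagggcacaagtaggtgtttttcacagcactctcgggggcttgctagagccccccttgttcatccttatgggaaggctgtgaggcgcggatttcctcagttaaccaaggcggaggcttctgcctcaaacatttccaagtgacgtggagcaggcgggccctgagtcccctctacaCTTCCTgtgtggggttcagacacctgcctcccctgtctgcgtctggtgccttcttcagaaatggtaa
Cd3g: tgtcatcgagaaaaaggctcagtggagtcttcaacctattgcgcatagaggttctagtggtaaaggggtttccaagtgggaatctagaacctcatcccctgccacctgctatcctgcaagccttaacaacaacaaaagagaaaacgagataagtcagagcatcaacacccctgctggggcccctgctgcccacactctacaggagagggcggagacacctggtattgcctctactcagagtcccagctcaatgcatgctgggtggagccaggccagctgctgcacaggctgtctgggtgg

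The ETS letters stood at -219, -113 and -57 relative to the start in Ptprc, at -55 in Cd79a and at -224 and -17 in Cd3e, and were not in the Cd3g window. They were also in the Laptm5 window (-233 and -39) and in one of the Coro1a windows (-57). Of all 32817 promoter entries of this length, 35.4% held them, so a match is common. CCCNNGGG, found in 13.7% of entries, was in Laptm5 (-181) and in the same Coro1a window (-131). Neither ATGCAAAT (1.74% of entries) nor TGTGGT (16.8%) was in the windows of these 6 genes. No binding was measured here.

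Total counts lay between 24996524 and 31393917 per library. Levels between libraries are given in CPM, the count divided by the library total in units of 1000000, after TMM scaling, and levels between genes in TPM, which also divides by transcript length. Glis2 transcript was lower in each Glis2-/- library but not absent, at 21.7, 23.2 and 19.6 CPM in the Glis2+/+ and 10.1, 17.0 and 16.3 CPM in the Glis2-/- libraries (replicates 1, 2 and 3, the order used throughout). Which part of the gene the allele removes is not given in the sources used here, so this level does not show how much intact transcript remained. Markers of mammary epithelium were abundant in all 6 libraries: 12 of them, the keratin gene Krt8 and the smooth muscle actin gene Acta2 of basal cells highest among them, summed to 6178 to 8290 CPM in Glis2+/+ and 6850 to 8355 CPM in Glis2-/- mice.

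Against that, the 9 genes were rare. Their summed level was 24.6, 14.0 and 16.7 CPM in the Glis2+/+ libraries and 35.9, 35.5 and 74.3 CPM in the Glis2-/- libraries. The 3 Glis2-/- libraries all lay above the 3 Glis2+/+ libraries, and replicate 3 of the Glis2-/- group stood well above its own group. The means were 18.4 ± 5.48 (SD, n = 3) and 48.6 ± 22.3 CPM (SD, n = 3), a ratio of 2.64. Without Glis2-/- replicate 3 the log2 ratio of the summed level was 0.95 in place of 1.40. In RNA of a whole cell population, more cells of a type and more RNA per cell of that type cannot be told apart.

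**Figure D1:**
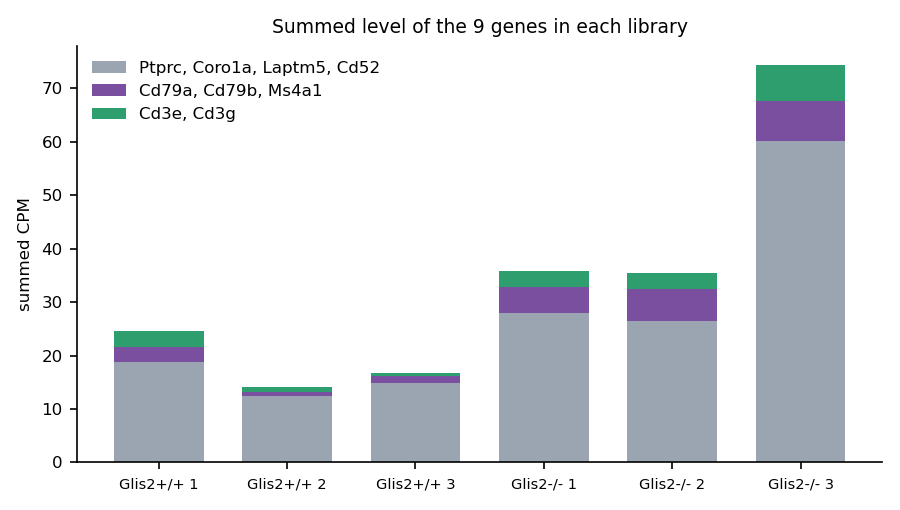
Summed level (CPM, bar height) of the 9 genes in each of the 6 libraries, with the pan-leukocyte genes in grey, the B cell genes in purple and the T cell genes in green. The Glis2-/- libraries reach 35.5 to 74.3 CPM and the Glis2+/+ libraries 14.0 to 24.6 CPM, and most of each bar is pan-leukocyte.

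Between genes, the mean level over the 6 libraries fell from Ptprc (0.987 TPM) through Coro1a (0.804 TPM), Laptm5 (0.778 TPM), Cd3g (0.582 TPM), Cd52 (0.417 TPM), Cd79a (0.340 TPM), Cd3e (0.323 TPM) and Cd79b (0.112 TPM) to Ms4a1 (0.0943 TPM). The ranges over libraries of all 8 neighbouring pairs in this order overlapped. The order was not the same in both genotypes. Cd3e was 4th in Glis2+/+ (0.331 TPM) and 7th in Glis2-/- libraries (0.314 TPM), and Cd79b (0.00807 TPM) was below Ms4a1 (0.0680 TPM) in Glis2+/+ but above it in Glis2-/- libraries (0.215 against 0.120 TPM). Ptprc had the highest mean in both, 0.661 and 1.31 TPM.

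Ptprc, the gene of the sort marker CD45, had 340, 228 and 252 counts in the Glis2+/+ and 370, 435 and 1212 counts in the Glis2-/- libraries. That is 11.0, 7.98 and 9.67 CPM against 14.8, 14.5 and 38.7 CPM. The genotypes did not overlap in CPM, but in deposited TPM Glis2+/+ replicate 3 (0.804 TPM) lay above Glis2-/- replicate 2 (0.714 TPM). In CPM, Glis2-/- replicates 1 and 2 lay much closer to the Glis2+/+ libraries than to Glis2-/- replicate 3. The fitted log2 fold change of Glis2-/- over Glis2+/+ was 1.25 ± 0.39 (SE), and 0.60 without Glis2-/- replicate 3. Ptprc shares 5864 bases of its strand with the unclassified transcript A130071D04Rik, which held 87, 38 and 35 counts in Glis2+/+ and 67, 113 and 182 counts in Glis2-/- libraries.

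Laptm5, which lowers antigen receptor levels in lymphocytes, followed Ptprc closely. It stood at 3.92, 2.80 and 3.30 CPM in Glis2+/+ and 6.55, 7.01 and 12.6 CPM in Glis2-/- libraries, with no overlap and with the highest value again in Glis2-/- replicate 3. Its log2 fold change was 1.39 ± 0.33 (SE), 1.01 without that library and 0.68 with the deposited TPM values. Within a library, the counts of Ptprc were 2.07 to 3.07 times those of Laptm5.

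Coro1a, the actin regulator, stood at 3.53, 1.30 and 1.80 CPM against 5.67, 3.87 and 7.38 CPM. Here Glis2+/+ replicate 1 (109 counts) came close to Glis2-/- replicate 2 (116 counts), without overlap. The log2 fold change was 1.35 ± 0.45 (SE), and 0.72 with the deposited TPM values, by which Glis2+/+ replicate 3 (1.06 TPM) was above Glis2-/- replicates 1 (1.05 TPM) and 2 (0.496 TPM). Cd52, the GPI-anchored surface peptide, rested on few counts, 9, 8 and 2 in Glis2+/+ against 23, 30 and 43 in Glis2-/- libraries. The corresponding levels were 0.292, 0.280 and 0.0768 CPM against 0.919, 1.00 and 1.37 CPM, a log2 fold change of 2.31 ± 0.76 (SE). Cd52 overlaps Crybg2 on the opposite strand, which had 57 to 271 counts and was not highest in the library where Cd52 was highest.

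As a sum, the B cell genes had the largest ratio of the 3 groups, except without Glis2+/+ replicate 1, where the T cell sum had a larger one. Cd79a, one chain of the B cell receptor's signalling pair, had 44, 15 and 12 counts in Glis2+/+ and 62, 99 and 140 counts in Glis2-/- libraries. The levels were 1.43, 0.525 and 0.461 CPM against 2.48, 3.31 and 4.47 CPM. All Glis2-/- libraries were above all Glis2+/+ libraries, and the spread within each genotype was 0.540 and 1.00 CPM (SD, n = 3). The log2 fold change was 2.08 ± 0.56 (SE), and 2.77 without Glis2+/+ replicate 1.

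Cd79b, the other chain of the pair, was nearly absent from the Glis2+/+ libraries, with 1, 1 and 1 count, and had 3, 43 and 59 counts in the Glis2-/- libraries. Glis2-/- replicate 1 (0.120 CPM) was above the Glis2+/+ libraries (0.0324, 0.0350 and 0.0384 CPM) on 3 counts, and well below Glis2-/- replicates 2 and 3 (1.44 and 1.89 CPM). Cd79b did not pass the filter on low counts that the other 8 genes passed, so it has no fitted fold change. The pooled counts, corrected for library size, differed 34.7-fold, with a 95% exact counting interval of 11.5 to 171. That interval treats each estimated count as a separate molecule, and leaves out PCR copies and the differences between mice. The ratio of Cd79a to Cd79b counts was 12.0 to 44.0 in Glis2+/+, 20.7 in Glis2-/- replicate 1, and 2.30 and 2.37 in Glis2-/- replicates 2 and 3.

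Ms4a1, the gene of CD20, had a different order of libraries. It stood at 1.30, 0.280 and 0.806 CPM in Glis2+/+ and 2.32, 1.37 and 1.21 CPM in Glis2-/- libraries. The genotypes overlapped, because Glis2+/+ replicate 1 was above Glis2-/- replicate 3, and the highest value was in Glis2-/- replicate 1. The log2 fold change was 1.03 ± 0.66 (SE), 0.63 without Glis2+/+ replicate 2 and 1.56 without Glis2+/+ replicate 1. Summed, the 3 B cell genes stood at 2.75, 0.840 and 1.30 CPM against 4.92, 6.11 and 7.57 CPM, a ratio of 3.80 with no overlap. The log2 ratio of this sum was 1.92, and 2.53 without Glis2+/+ replicate 1.

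The T cell genes were less even. Cd3e had 41, 11 and 14 counts in Glis2+/+ and 3, 60 and 93 counts in Glis2-/- libraries, or 1.33, 0.385 and 0.537 CPM against 0.120, 2.00 and 2.97 CPM. Its lowest and its highest value were thus both in Glis2-/- mice, in replicates 1 and 3. Cd3e shares 1206 bases of its strand with the unclassified transcript Gm48720. That transcript held 10, 6 and 5 counts in Glis2+/+ and 16, 12 and 10 counts in Glis2-/- libraries, and how reads were shared was not tested. The log2 fold change of Cd3e was 1.17 ± 0.97 (SE), and it was 0.49 without Glis2-/- replicate 3 and 1.86 without Glis2+/+ replicate 1. With the deposited TPM values in place of counts the log2 difference of Cd3e was -0.08. The deposited TPM per CPM of Cd3e differed 8.06-fold between libraries, most of the 9 genes, and was highest in Glis2+/+ replicate 3.

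Cd3g had 53, 13 and 0 counts in Glis2+/+ and 73, 30 and 114 counts in Glis2-/- libraries, or 1.72, 0.455 and 0 CPM against 2.92, 1.00 and 3.64 CPM. The genotypes overlapped through Glis2+/+ replicate 1, without which the log2 fold change was 3.41 in place of 1.78 ± 1.11 (SE). A count of 0 in Glis2+/+ replicate 3 allows up to 3 counts in that library. In Glis2-/- replicate 1, where Cd3e had 3 counts, Cd3g had 73. The sum of both genes was 3.05, 0.840 and 0.537 CPM against 3.04, 3.00 and 6.61 CPM, so that Glis2+/+ replicate 1 was level with Glis2-/- replicates 1 and 2. Without Glis2+/+ replicate 1 the log2 ratio of this sum was 2.61 in place of 1.52.

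**Figure D2:**
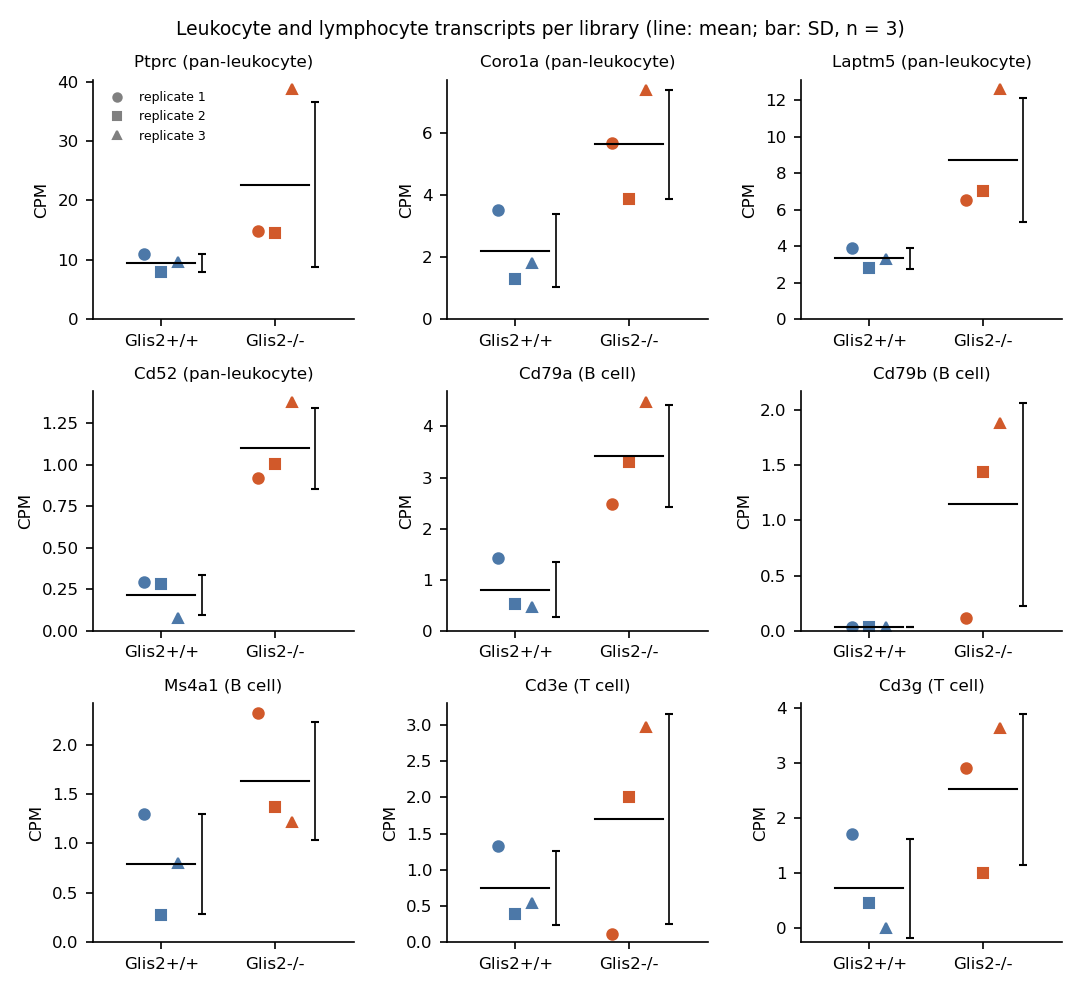
Level (CPM, vertical axes from 0 except for Cd3g, whose SD bar passes below 0) of each gene in the 3 Glis2+/+ (blue) and 3 Glis2-/- (orange) libraries, with replicates 1, 2 and 3 as circle, square and triangle, the mean as a line and the SD as a bar. Orange triangles are highest in 8 of the 9 panels, and the genotypes overlap in Ms4a1, Cd3e and Cd3g.

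In all, 6 of the 9 genes had every Glis2-/- library above every Glis2+/+ library in CPM, 5 of them among the 8 that passed the filter on low counts, against 6.23% of the 21236 genes that passed it. In deposited TPM, 5 of the 9 did, Cd79b included, which is not among the 21236 genes, of which 2.51% did. Ptprc and Coro1a then overlapped, and Cd3g did not. Since the genes were chosen on this contrast, nothing is read from that count. The mean CPM was higher in Glis2-/- mice for all 9, which for Cd3e did not hold in deposited TPM, and it was higher also when any 1 library was left out, with a median ratio over the 9 genes of 2.32 without Glis2-/- replicate 3 to 3.68 without Glis2+/+ replicate 1. Glis2-/- replicate 3 held the highest value of 8 of the 9 genes, and Glis2+/+ replicate 2 the lowest of 4. Over all genes fitted, Glis2-/- replicate 3 was highest for 16.8% and Glis2+/+ replicate 2 lowest for 19.9%. The median log2 fold change of the 8 genes fitted was 1.37, and that of all genes 0.01.

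The 9 genes did not form one block across libraries. Over the 6 libraries, Pearson's r between log2 levels of their 36 pairs ran from 0.080 for Ms4a1 with Cd3e to 0.962 for Ptprc with Laptm5, with a median of 0.813. Cd79a went with Cd52 (r = 0.956) and Laptm5 (r = 0.949) more than with its partner Cd79b (r = 0.827). Cd3e and Cd3g, chains of a single receptor, had an r of only 0.330. The points share libraries and their depth, and counts of some genes are near 0, so these values are a description. By TPM, the B cell sum was 0.574, 0.194 and 0.330 of the T cell sum in Glis2+/+ and 0.903, 1.08 and 0.528 of it in Glis2-/- libraries, which overlap.

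Other genes of the same cells were read from marker lists, which were likewise drawn up with results of these data known. The lists held 28 pan-leukocyte, 27 B cell, 30 T cell and 12 natural killer and cytotoxic genes, of which 81 passed the filter. A gene was called when edgeR's quasi-likelihood test gave a Benjamini-Hochberg adjusted p no higher than 0.05 and the log2 fold change lay 0.58 or more from 0. None of the 81 was called, and the smallest adjusted p was 0.906. The test called 0% of all 21236 genes, and DESeq2 called none of the 81 and 0.19% of 23738 genes. At an unadjusted p under 0.05, 15 of the 81 (18.5%) passed in edgeR, 14 higher and 1 lower in Glis2-/- mice, against 5.32% of all genes. That count was 6 of 82 without Glis2-/- replicate 3 (6.00% of all genes), 8 of 87 without Glis2+/+ replicate 3 (4.13% of all genes) and 28 of 86 without Glis2+/+ replicate 1 (6.11% of all genes). Of the 81, 70 had a positive and 11 a negative log2 fold change, with a median of 0.84, while 51.6% of all genes were positive, and 19 (23.5%) had all Glis2-/- above all Glis2+/+ libraries, against 6.23% of all genes. The summed levels of the pan-leukocyte, B cell and T cell lists overlapped between genotypes, at 374 to 400 against 393 to 489 CPM, 105 to 136 against 133 to 174 CPM and 75.5 to 126 against 97.6 to 217 CPM. A few abundant genes made up most of these sums. Cd44 (mean 136 CPM) led the pan-leukocyte list and Tcf7 (53.9 CPM) the T cell list. Ebf1 (38.1 CPM), Ly6d (27.3 CPM) and Bcl11a (26.1 CPM) led the B cell list. Other gland cells also make some of these genes, so the sums do not show how leukocyte RNA differed.

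Glis2-/- replicate 3 bore on these lists too. It had the highest level of 50 of the 81 genes (61.7%). Without it, 60 of 82 genes had a positive log2 fold change (49.4% of all genes), the median was 0.47, and 20 were above in both remaining Glis2-/- libraries, against 13.0% of all genes. Without Glis2+/+ replicate 1 the median was 1.21, 79 of 86 were positive (50.2% of all genes), and 41 of 86 had all Glis2-/- above the remaining Glis2+/+ libraries, against 12.6% of all genes.

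Among the other pan-leukocyte genes, 24 of 27 had a positive log2 fold change and the median was 0.46. The integrin chain gene Itgal stood at 2.69, 1.05 and 0.768 CPM in Glis2+/+ and 2.80, 4.17 and 8.44 CPM in Glis2-/- libraries, without overlap, and had a log2 fold change of 1.77 ± 0.59 (SE). The 4 most abundant genes of the list had smaller log2 fold changes: the actin-bundling Lcp1 had 0.32, the Rac activator Dock2 0.32, the actin regulator Evl 0.05 and the hyaluronan receptor Cd44 -0.33. Cd44, at 137, 172 and 144 CPM against 124, 108 and 129 CPM, was the 1 gene of the 81 with all Glis2-/- below all Glis2+/+ libraries, a pattern of 5.5% of all genes, and basal mammary cells also make it. Hcls1, a cortactin relative of haematopoietic cells, had a log2 fold change of -0.03.

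Among the other B cell genes, 21 of 24 had a positive log2 fold change and the median was 1.11. The immunoglobulin heavy chain gene Ighm stood at 7.91, 0.140 and 3.76 CPM in Glis2+/+ and 10.2, 5.88 and 12.6 CPM in Glis2-/- libraries, with overlap at Glis2+/+ replicate 1, and a log2 fold change of 1.28 ± 0.91 (SE). The largest differences were in Cd72, a B cell coreceptor (2.74 ± 1.06, SE), and in the light chain gene Iglc2 (2.22 ± 1.33, SE), both with overlapping genotypes. The most abundant list genes, Ebf1 (-0.20), Ly6d (-0.04) and Bcl11a (0.31), and the adaptor gene Blnk (-0.36) stood near 0 on the log2 fold change scale. Fibroblasts and fat cells also make Ebf1, and mammary epithelium makes Bcl11a.

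Among the other T cell genes, 25 of 28 had a positive log2 fold change and the median was 0.95. Cd4, the coreceptor of helper T cells, stood at 0.940, 0.735 and 1.69 CPM against 1.76, 3.41 and 5.46 CPM, with no overlap and a log2 fold change of 1.66 ± 0.54 (SE). The receptor alpha constant gene Trac had 1.81 ± 0.91 (SE), with overlap. Cd3d, which lies between Cd3g and Cd3e and encodes a further chain of their complex, did not share this pattern: it stood at 7.88, 4.34 and 5.45 CPM against 3.44, 5.37 and 7.61 CPM, with a log2 fold change of -0.10 ± 0.37 (SE). Tcf7 (0.36), Gimap6 (0.34), Bcl11b (0.25) and Ubash3a (-0.22) also had small log2 fold changes. Basal mammary cells make Bcl11b and endothelium Gimap6.

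Of the 12 natural killer and cytotoxic genes, only Ccl5 (log2 fold change -0.36) and Txk (-0.12) passed the filter. The defining markers Klrb1c and Klrd1 and the granzyme genes Gzma and Gzmb had 0 counts in all 6 libraries, which allows up to 0.0959 to 0.120 CPM in a library by a limit of 3 counts. The perforin gene Prf1, not fitted, stood at 0.0972, 0 and 0.0384 CPM against 0.799, 0.267 and 0.415 CPM, and the transcription factor gene Eomes, not fitted either, at 0.0648, 0.595 and 0.269 CPM against 0.320, 0.0668 and 0.735 CPM.

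**Figure D3:**
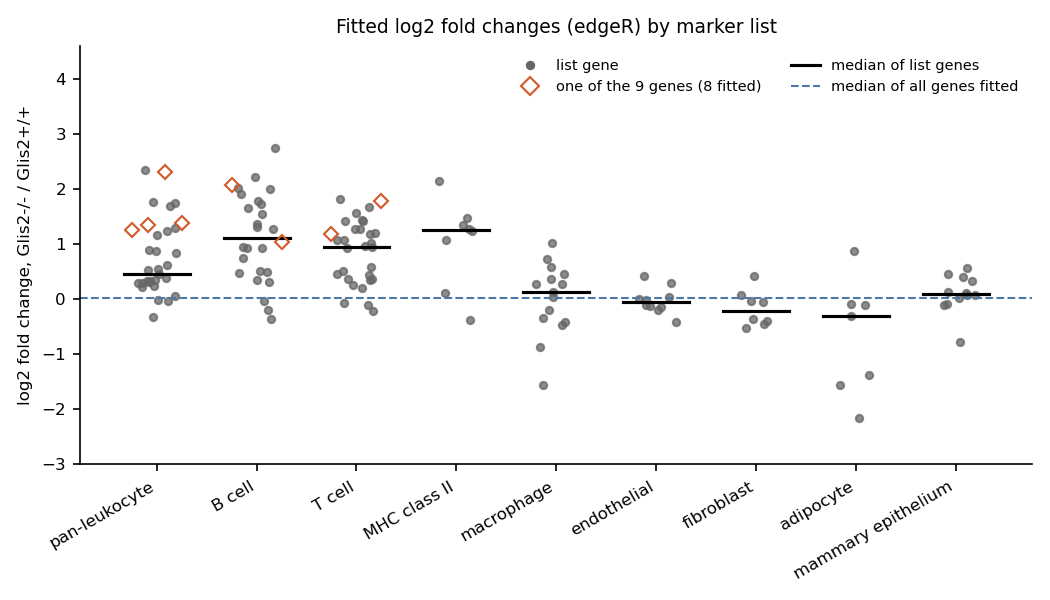
Fitted log2 fold change of Glis2-/- over Glis2+/+ (vertical axis) for the genes of each marker list (grey points, with the list median as a black line) and for the 8 fitted genes of the 9 (orange diamonds), with the median of all genes fitted dashed. List medians are 0.46, 1.11 and 0.95 for the pan-leukocyte, B cell and T cell lists, 1.25 for MHC class II and 0.13 for macrophages.

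Other cell types of the gland, which the sort could have let through, were read from their own marker lists. The sum of 16 macrophage genes, led by Cd14 and the mannose receptor gene Mrc1, was 62.0 to 77.8 CPM in Glis2+/+ and 58.2 to 80.3 CPM in Glis2-/- libraries, with a median log2 fold change of 0.13. The sum of 10 neutrophil and mast cell genes, Cpa3 and Csf3r highest, was 1.40 to 6.97 CPM against 2.80 to 6.33 CPM. MHC class II genes, which B cells, dendritic cells and macrophages use to present peptides, stood apart from these: their sum was 55.0, 22.6 and 37.3 CPM against 64.2, 74.8 and 111 CPM, without overlap, and 4 of 8 had all Glis2-/- above all Glis2+/+ libraries, against 6.23% of all genes. Cd74, the invariant chain of these molecules, stood at 24.4, 9.84 and 15.9 CPM against 28.5, 37.6 and 52.1 CPM (log2 fold change 1.24 ± 0.34, SE; adjusted p 0.906 in edgeR and 0.0383 in DESeq2). H2-Ab1, a class II beta chain, had a log2 fold change of 1.07 ± 0.48 (SE), with overlap at Glis2+/+ replicate 1.

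CD31 was stained in the same colour as CD45. Its gene Pecam1 stood at 160, 44.6 and 124 CPM in Glis2+/+ and 130, 72.1 and 198 CPM in Glis2-/- libraries, and by TPM it was 6.64 to 24.2 times as abundant as Ptprc. The sum of 10 endothelial genes, with Cdh5 and Pecam1 the most abundant, was 154 to 783 CPM against 222 to 784 CPM, lowest in replicate 2 of both genotypes. Fibroblast genes, Col3a1 and Col1a1 leading, summed to 2309 to 7776 CPM against 2612 to 5928 CPM, and erythroid genes, mostly the globin genes Hba-a2 and Hbb-bs, to 7.35 to 21.5 CPM against 12.7 to 32.9 CPM. Adipocyte genes, Car3 and the lipid droplet gene Plin1 highest, summed to 22.5 to 84.4 CPM against 7.95 to 33.4 CPM. The MHC class II and erythroid sums were highest in Glis2-/- replicate 3, the library in which 8 of the 9 genes were highest. The macrophage and endothelial sums were nearly level there with another library (80.3 CPM against 79.7 CPM in Glis2-/- replicate 2, and 784 CPM against 783 CPM in Glis2+/+ replicate 1), and the neutrophil and mast cell, fibroblast and adipocyte sums were highest in Glis2+/+ libraries. The macrophage sum depends much on Cd14, which stood at 9.69, 46.1 and 27.2 CPM against 12.7, 42.9 and 9.97 CPM. Of the 15 macrophage genes fitted, 9 were highest in Glis2-/- replicate 3, against 16.8% of all genes fitted. Over the 6 libraries, Pearson's r of log2 sums with the 9 genes was 0.96 for MHC class II and 0.47 for endothelial genes. For the other lists named here it was 0.70 (erythroid), 0.67 (neutrophil and mast cell), 0.15 (fibroblast), 0.02 (macrophage) and -0.28 (adipocyte). The part of these other cells in the levels of the 9 genes was not tested.

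**Figure D4:**
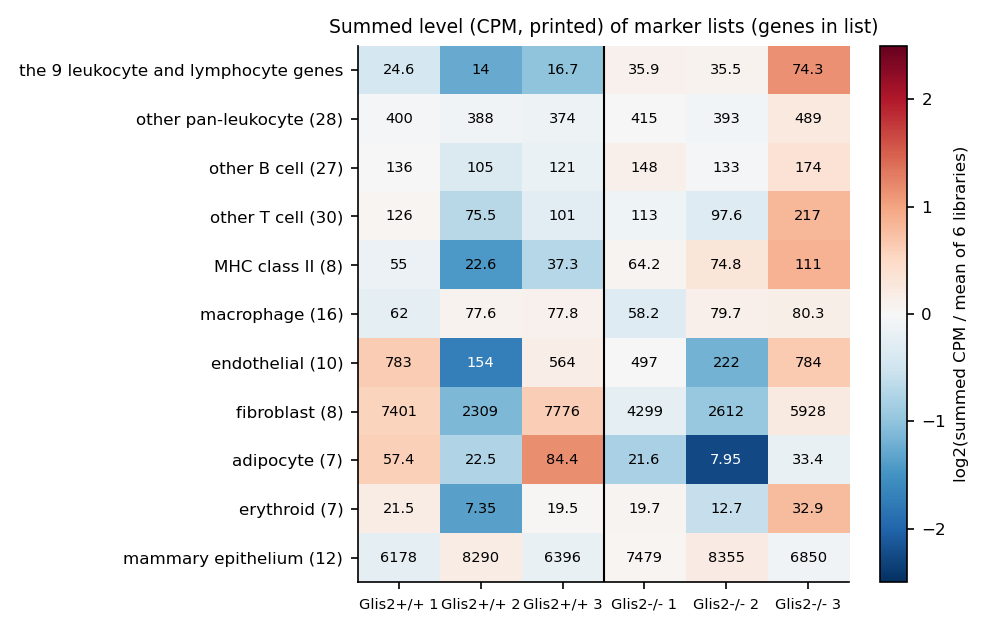
Summed level in CPM (printed in each cell) of the 9 genes and of marker lists (number of genes found in parentheses) in the 6 libraries, coloured by the log2 ratio to the mean of the 6 libraries, with Glis2+/+ left and Glis2-/- right of the line. The sums of the 9 genes and of MHC class II are higher in every Glis2-/- library, while the sums of all other lists drawn overlap between genotypes, the other pan-leukocyte, B cell and T cell genes included. The pan-leukocyte, B cell and T cell sums rest mostly on a few abundant genes, with Cd44, Ebf1 and Tcf7 the highest of each list.

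Genes whose log2 level followed the summed level of the 9 genes most closely were looked for among 17095 genes with a mean of at least 1 CPM. The 10 closest, with Pearson's r over 6 libraries of at least 0.980, were Mfsd2a, Hacd1, Rpl15-ps2, Fth1, Magi1, Sash3, Spout1, Vav3, Ubd and Tcea2. None is in the marker lists. Sash3, an adaptor of lymphocytes, stood at 0.843, 0.315 and 0.345 CPM against 1.16, 1.60 and 3.07 CPM (r = 0.987). Ubd, a ubiquitin-like modifier made by antigen-presenting cells and by cells exposed to inflammatory cytokines, had the largest difference of the 10, with 1.17, 0.105 and 0.844 CPM against 7.11, 4.51 and 26.0 CPM. The lipid transporter gene Mfsd2a, first with r = 0.998, had a log2 fold change of 0.44. With this many genes and 6 points, a high r is easily met: 777 genes (4.55%) had an r above 0.8, as did 24 of the 64 pan-leukocyte and lymphocyte list genes compared (37.5%).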

How the data were processed

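RNA was measured in 6 libraries, 1 per mouse. Per the labels, total RNA of sorted cells was converted with a stranded low-input kit and amplified by PCR, with no molecular identifiers named. The authors estimated counts with Salmon 1.2.1 on an mm10 transcriptome; the deposited estimated counts are whole numbers per gene, not normalized. The deposited log2 values are log2(TPM + 1) of the same estimates. A TPM value depends on how Salmon shared reads among transcripts, and its strand setting is not given in the sources used here. One small RNA, Gm23935, took 83.0% (Glis2+/+ replicate 3) to 85.7% (Glis2-/- replicate 2) of the TPM. The TPM left for all other genes thus differed between libraries, and no correction was made for it. TPM per CPM of Ptprc and Coro1a was highest in Glis2+/+ replicate 3 and lowest in Glis2-/- replicate 2, 1.69-fold and 4.59-fold apart.

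Of 54418 identifiers, 54166 matched the GENCODE M21 annotation of GRCm38. Genes were fitted with edgeR 4.0.16 (R 4.3.3; filterByExpr, TMM, quasi-likelihood test, Benjamini-Hochberg adjustment), and called where the adjusted p was no higher than 0.05 and the log2 fold change lay 0.58 or more from 0. Likeness used log2(CPM + 0.5). Alternatives were edgeR without the filter on low counts or with size factors of DESeq2 1.42.0, DESeq2 itself with apeglm 1.24.0, limma 3.58.1 on log2(TPM + 1) and log2(TPM + 0.1), raw library totals, deposited TPM, the fit blocked by replicate number, and dropping 1 mouse at a time. The fits were tested on simulated data. No library was a copy of another (chi-square per degree of freedom at least 20.5).

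The 9 genes, the marker lists and the tests were chosen with earlier results of these data known. Named genes were, for the pan-leukocyte, B cell, T cell and natural killer lists, the 4 of highest mean CPM, the 2 of largest rise, the 2 of largest fall and any called, for other lists the 2 of highest mean CPM, and the 10 genes closest to the summed level. Klrb1c, Klrd1, Gzma and Gzmb were named after their values were seen. A result that this rule would name is not reported here. Separate mice make the replicates.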

Additional observations from a re-analysis of the deposited data

How the results depend on the processing

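Over all genes, 0 were called by edgeR, with 1130 at an unadjusted p under 0.05. DESeq2 with apeglm called 45, the fit without a filter on low counts 40 and limma on log2(TPM + 0.1) 1, while DESeq2 size factors, log2(TPM + 1) and leaving out any 1 mouse (0 to 0) called none, and the cause was not tested. Of the pan-leukocyte and lymphocyte list genes, 0 were called in edgeR and under each of these alternatives. With the replicate block 0 genes were called. Deviations of same-numbered libraries correlated at -0.02, 0.17 and 0.02, so no shared deviation was seen, which cannot show whether the mice were paired. Leaving out 1 mouse moved the log2 ratio of the summed level from 0.95 to 1.66 for the 9 genes, 1.61 to 2.53 for the B cell genes, 1.03 to 2.61 for the T cell genes and 0.83 to 1.52 for the pan-leukocyte genes, lowest without Glis2-/- replicate 3 except for the B cell sum, lowest without Glis2+/+ replicate 2. With deposited TPM these log2 ratios were 1.09, 2.01, 1.02 and 0.97. Of 88 log2 fold changes of single genes among the 9 under the alternatives, 78 moved by less than the spread between mice, 9 moved by more, and 1 reversed, that of Cd3e with deposited TPM (-0.077); the cause was not tested. Depth limits Cd79b, Cd52, Cd3e and Cd3g most, since each had libraries with 3 counts or fewer. Leaving out each mouse for the counts of genes whose genotypes do not overlap and for the list medians, and counting that overlap in deposited TPM, were chosen after seeing the data.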
